A study of Danio rerio with 6 samples.

Results

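The genes described here are 44 markers of the enteric nervous system, the network of neurons and glia in the gut wall, followed in guts taken from zebrafish (Danio rerio) larvae. They were taken by name from a fixed list, 36 as neuron genes and 8 as glia genes, and 42 of them had a row among the 15419 genes of the count table: 34 neuron genes and all 8 glia genes. The table lists no row under the names htr3a and chrna3, which encode a serotonin-gated and a nicotinic receptor channel, and these were not analysed here. Of the 42 rows, 39 passed the filter on low counts and entered the test, 32 from neurons and 7 from glia. Of the other 3, counts are given for tac3b and s100b.

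In the transected group, wild-type guts had been cut across the whole organ 24 hours before dissection. The control group holds wild-type guts whose labels mention no cut, and both groups have the same WT genotype with no transgene or drug in the labels. The series' design gives the larvae as 5 days post-fertilization, and whether they were that old when cut or when dissected is not given there. Each group has 3 libraries, and each library pooled 10 to 15 guts, so the spread is between pools and not between fish. Total counts ran from 21525093 to 25131242 per library, so that 3 counts, the limit that a count of 0 allows, are worth 0.115 to 0.139 CPM (each count as a share of its library's scaled total). Over all 11466 genes tested, libraries that carry the same replicate number in both groups deviated from their group means together. They are called pairs 1, 2 and 3, with correlations of 0.450, 0.512 and 0.177. The last is not far above the 0.118 of transected library 2 with control library 3. The 2 libraries numbered 1 lay at one end of the first principal component of all genes, away from the other 4, and results are also given without them.

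Enteric neurons and glia arise from neural crest cells that enter the gut and spread along it. The receptor tyrosine kinase Ret, held on these cells together with the co-receptor Gfra1, answers to the growth factor GDNF, and the transcription factor Sox10 is needed for the crest cells to form enteric neurons and glia. Mature enteric neurons drive peristalsis, with acetylcholine as an excitatory and nitric oxide and vasoactive intestinal peptide (VIP) as inhibitory transmitters. In a whole gut, fewer cells of a type and less RNA per cell cannot be told apart.

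The neuron genes were detected, though their counts alone do not show which cells of the gut made the RNA. The defining neuron genes ret, elavl3, elavl4, nos1, vip and chata had counts in every library, from 21 for chata in control replicate 1 to 986 for ret in control replicate 2. The 34 neuron rows together summed to 336, 336 and 262 CPM in transected libraries 1, 2 and 3, against 235, 372 and 329 CPM in control libraries 1, 2 and 3. Glia were represented thinly, with a sum over the 8 rows of 15.8, 7.80 and 9.53 CPM in transected guts against 18.2, 8.60 and 8.60 CPM in controls. Of the glia genes only sox10 reached 100 counts in any library, so the glia set carries more counting error than the neuron set.

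No gene of either set passed the test between transected and control guts. Of the 32 neuron genes tested, 0 passed an adjusted p of 0.05 in either direction in edgeR, and of the 7 glia genes 0 did. Over all 11466 genes tested the same test called 0.0174% higher and 0% lower, so that it called almost nothing anywhere. DESeq2, which called 0.846% of all genes higher and 0.584% lower, also called 0 members of either set, and limma-voom called 0 genes. When the replicate number was a block, edgeR called 0.0262% of all genes higher and 0.00872% lower and DESeq2 1.43% and 1.08%, again with 0 members among them. The median log2 fold change (transected over control) was 0.00068 for neuron genes, from -1.02 for ncam1a to 0.89 for tubb5, against 0.0026 for all genes tested. For glia genes it was -0.05, from -0.32 for sox10 to 0.69 for foxd3. Of the neuron genes, 16 had a positive and 16 a negative log2 fold change, where 50.5% of all genes were positive and 49.5% negative, and of the glia genes 3 were positive and 4 negative.

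At an unadjusted p under 0.05, edgeR had 3 neuron genes higher in transected guts (vip, tubb5 and uchl1), where 4.32% of all genes were. It had 1 lower (ncam1a), where 3.55% of all genes were. No glia gene reached that level. For tubb5 and uchl1 all 3 transected libraries were above all 3 controls, and for ncam1a all were below, where 7.48% of all genes tested lay wholly above and 6.38% wholly below. These are 1 to 3 genes of 32, close to the background in number, and they are described below by role.

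**Figure D1:**
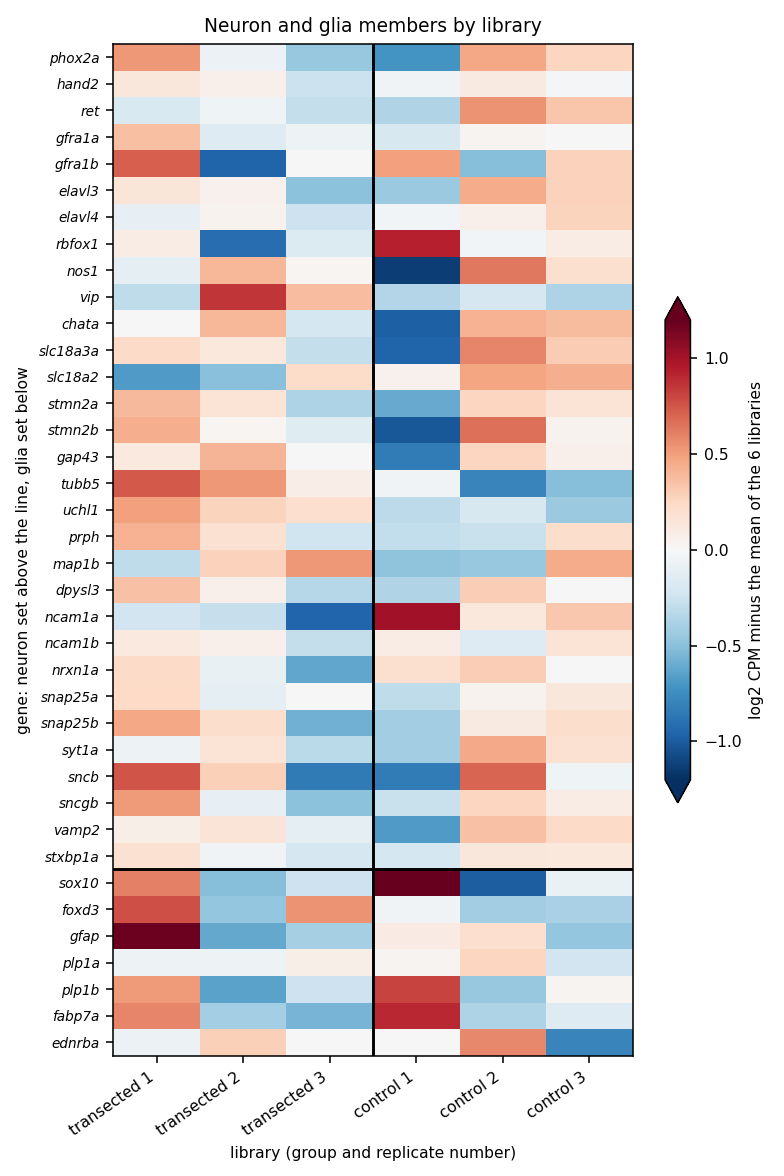
Heat map of tested members, with log2 CPM minus the mean of the 6 libraries as colour (red higher, blue lower, and the scale stops at 1.2 on either side). Transected libraries stand to the left of the vertical line and controls to the right, and neuron genes stand above the horizontal line and the 7 glia genes below. Control replicate 1 is blue for most neuron genes, while both libraries numbered 1 are red for sox10, plp1b and fabp7a.

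The neuron genes differed together within pairs, but in opposite directions in different pairs. In pair 1, 28 of 32 neuron genes were higher in the transected library, where 49.8% of all genes were, with a median difference of 0.65 in log2 CPM. In pair 2, 24 of 32 were lower, where 47.4% of all genes were, with a median of -0.22. In pair 3, 28 of 32 were lower, where 47.9% of all genes were, with a median of -0.40. In all, 20 of the 32 were higher in the transected library in pair 1 and lower in both other pairs, a pattern that 14% of all genes tested showed. The reverse pattern was found in 0 neuron genes and in 15.6% of all genes. Each pair holds 1 library per group, so the difference between pairs was not tested. Smooth muscle markers, from the muscle layers in which enteric neurons lie, took the same directions. They summed to 4527, 3354 and 2744 CPM in transected libraries 1, 2 and 3, against 3027, 4006 and 3578 CPM in the controls, higher in pair 1 and lower in pairs 2 and 3, so the pattern was not shown to be particular to neurons. The median over the 12 tested markers of log2 CPM, after subtracting the mean over all 6 libraries, was 0.36, -0.15 and -0.36 against 0.15, 0.07 and 0.01. On this measure the pair directions were the same, but control replicate 1 was the highest control, where it was the lowest for the neuron genes. In summed CPM control replicate 1 was the lowest control for both lists. The part of smooth muscle in the neuron result was not tested.

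Control replicate 1 was the lowest of the 6 libraries for 17 of the 32 neuron genes, where it was lowest for 21.7% of all genes. Transected replicate 3 was lowest for another 9 (13.5% of all genes). The highest library was transected replicate 1 for 14 neuron genes (20.6% of all genes) and control replicate 2 for 11 (15.2%). Summarised as the median over the 32 genes of log2 CPM after subtracting the mean over all 6, the neuron level was 0.21, 0.06 and -0.25 in transected libraries 1, 2 and 3, against -0.35, 0.26 and 0.17 in control libraries 1, 2 and 3. The groups overlapped fully, and the controls alone spanned the range of all 6 libraries. The group means of this level were 0.01 in transected guts and 0.03 in controls. In pairs 1 and 3 the libraries lay on opposite sides of these means, so there the neuron genes did not share the deviation that defined the pairs. Between the highest and lowest library a neuron gene differed by a median of 2.08-fold, from 1.32-fold for hand2 to 4.26-fold for gfra1b, against 1.56-fold for all genes tested. The value of gfra1b rests on 4 to 20 counts per library. Counting error widens this ratio, and the genes compared were not matched for expression level.

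Without the libraries numbered 1, 2 transected libraries remained against 2 controls, and there 26 of 31 neuron genes were lower in transected guts, where 48.1% of all genes were. The median log2 fold change was then -0.29 for neuron genes and 0.012 for all genes. edgeR called 0 neuron genes in that comparison, while it called 0.866% of all genes higher and 1.5% lower. Before adjustment, at p under 0.05, it had vip and tubb5 higher (9.05% of all genes were) and phox2a, ret and ncam1a lower (10.2% of all genes were). DESeq2 called vip and tubb5 higher and ret lower, where it called 2.42% of all genes higher and 3.62% lower.

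**Figure D2:**
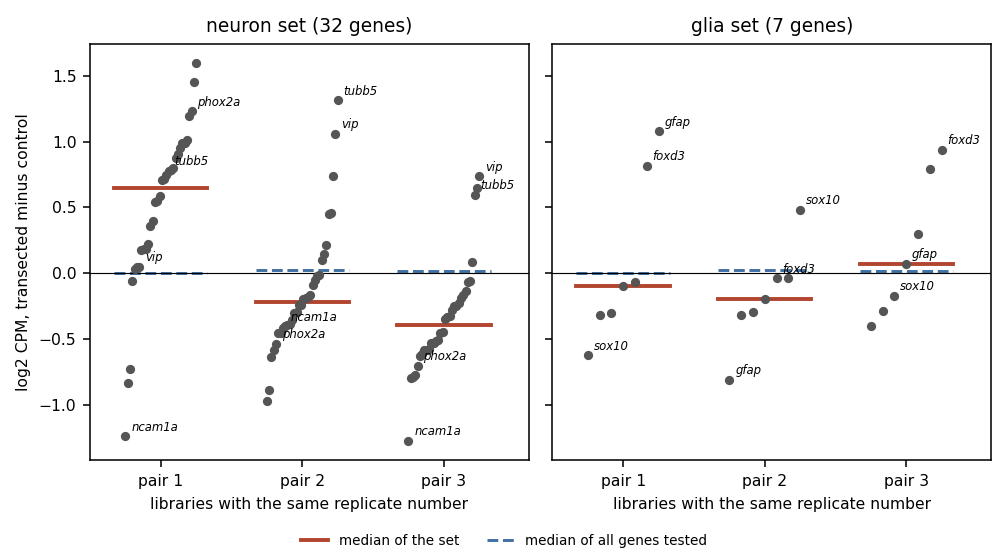
Difference in log2 CPM, transected minus control, in each pair of libraries with the same replicate number, for the 32 tested neuron genes (left) and the 7 tested glia genes (right). Each point is a gene, the solid line is the median of the set and the dashed line the median of all 11466 genes tested. The neuron genes sit mostly above 0 in pair 1 (28 of 32) and mostly below it in pairs 2 and 3 (24 and 28 of 32). By contrast, vip and tubb5 are above 0 in every pair (vip by only 0.05 in pair 1), and so are uchl1 and map1b, which carry no label.

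Among the transcription factors, phox2a showed this pair pattern and hand2 varied little. phox2a, a homeobox gene of autonomic and enteric neurons, had 33.4, 22.2 and 17.0 CPM in transected libraries 1, 2 and 3, against 14.2, 32.3 and 27.8 CPM in the controls. The ratio of transected to control was 2.35 in pair 1, 0.688 in pair 2 and 0.611 in pair 3, and the log2 fold change over all libraries was -0.03 (SE 0.37). The means were 24.2 ± 8.36 CPM in transected guts and 24.8 ± 9.42 CPM in controls (mean ± SD over n = 3 in each group, also below), and edgeR gave an adjusted p of 0.991. hand2, a basic helix-loop-helix factor that enteric neurons need for their differentiation and that gut mesenchyme also makes, was the steadiest neuron gene, at 36.9, 34.9 and 28 CPM in transected guts against 32.5, 36.2 and 33.2 CPM in controls.

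ret encodes the signalling subunit of the GDNF receptor. It had 27.9, 30.6 and 26 CPM in transected guts, against 24.5, 45.8 and 39.9 CPM in controls. Control replicate 1 lay below all the transected libraries and the other 2 controls lay above them. The log2 fold change was -0.38 (SE 0.23, edgeR adjusted p = 0.762, exact two-sided permutation p = 0.4). In pairs 2 and 3 the ratio was 0.667 and 0.651. With DESeq2 and without the libraries numbered 1, ret fell by 0.61 on the log2 scale (adjusted p = 0.0146, over a range of 0.0146 to 0.999 across 16 alternatives). The co-receptor gene gfra1a was at 10.1, 7.04 and 7.50 CPM in transected guts against 6.87, 8.04 and 7.88 CPM in controls, with overlapping groups. gfra1b, its duplicate, had only 20, 4 and 10 counts in transected guts against 16, 6 and 12 in controls.

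The neuronal RNA-binding proteins are used as markers of postmitotic neurons. elavl3 (HuC) had 5.15, 4.83 and 3.28 CPM in transected guts against 3.40, 6.37 and 5.66 CPM in controls, a log2 fold change of -0.22 (SE 0.30, edgeR adjusted p = 0.921). elavl4 (HuD) varied less, at 10.2, 11.2 and 9.14 CPM against 10.6, 11.4 and 13.1 CPM in controls (log2 fold change -0.20, SE 0.14, edgeR adjusted p = 0.797). Both genes overlapped between groups. rbfox1, a splicing regulator of neurons and muscle, had 3.0, 1.44 and 2.5 CPM in transected guts against 5.42, 2.74 and 2.99 CPM in controls, and control replicate 1 was its highest library, unlike most of the neuron set.

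Neither inhibitory transmitter gene passed the test. vip, which encodes the VIP precursor, had 373, 714 and 531 counts in transected libraries 1, 2 and 3, against 343, 331 and 303 in the controls, or 14.3, 32.2 and 22.9 CPM against 13.9, 15.4 and 13.7 CPM. The 3 controls were nearly level, transected replicates 2 and 3 lay above all of them, and transected replicate 1 lay among them. The means were 23.1 ± 8.94 and 14.3 ± 0.925 CPM, with a log2 fold change of 0.69 (SE 0.28), an unadjusted p of 0.0472 and an edgeR adjusted p of 0.630. The exact two-sided permutation p was 0.2, where the smallest that 3 against 3 libraries allow is 0.1. The ratio was 1.03 in pair 1, 2.09 in pair 2 and 1.67 in pair 3. Of the 16 alternatives 1 called it: DESeq2 without the libraries numbered 1, with a log2 fold change of 0.91 (adjusted p = 0.00526, over a range of 0.00526 to 0.997).

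nos1, which encodes the neuronal nitric oxide synthase found with VIP in many inhibitory motor neurons, had 20.3, 29.0 and 22.5 CPM in transected guts against 10.0, 34.4 and 25.3 CPM in controls, so that the controls spanned a wider range than the transected libraries and enclosed them. The log2 fold change was 0.05 (SE 0.42, edgeR adjusted p = 0.989). The count of vip per count of nos1 in the same library, was 0.706, 1.11 and 1.02 in transected guts against 1.38, 0.448 and 0.543 in controls. It was higher in the transected library in pairs 2 and 3 and lower in pair 1, with an exact two-sided permutation p of 0.8.

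The cholinergic genes were higher in the transected library in pair 1 and level or lower in the other pairs. chata, the acetylcholine-synthesising enzyme, had 46, 52 and 35 counts in transected guts against 21, 51 and 51 in controls (log2 fold change 0.03, SE 0.43, edgeR adjusted p = 0.993). slc18a3a, the vesicular acetylcholine transporter, had 5.76, 5.37 and 4.01 CPM in transected guts against 2.47, 7.39 and 6.07 CPM in controls. For both, control replicate 1 was the lowest library. slc18a2, the vesicular transporter of serotonin and other monoamines, had 8, 8 and 15 counts in transected guts against 14, 17 and 17 in controls. tac3b, a neurokinin B gene, had 1, 0 and 2 counts in transected guts against 2, 0 and 1 in controls.

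**Figure D3:**
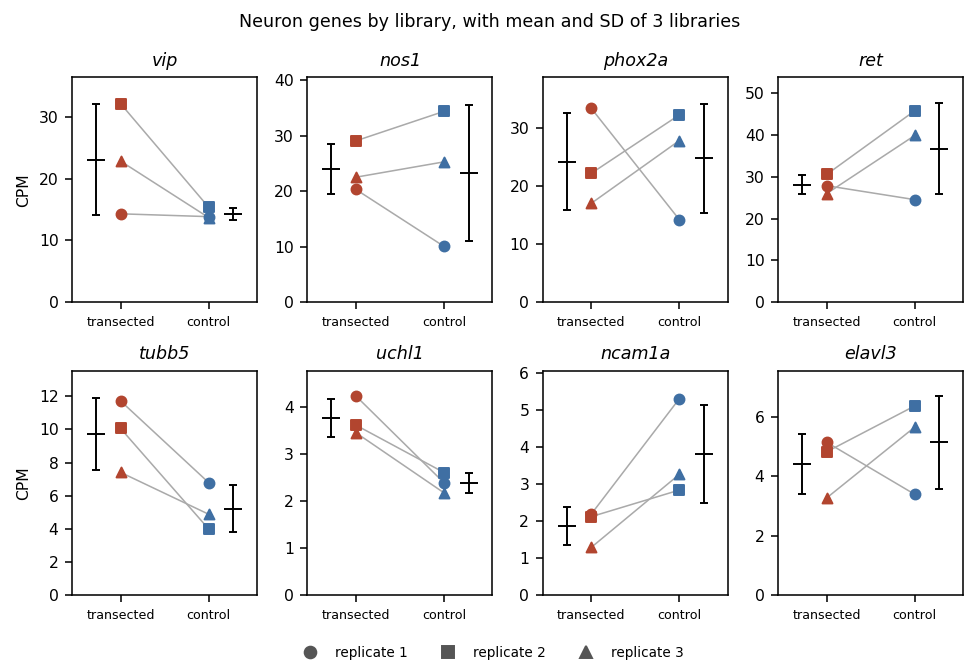
CPM of 8 neuron genes, with transected libraries in red on the left and controls in blue on the right of each panel. Symbols mark the replicate number, grey lines join the libraries of a pair, and the black bars give the mean and SD of 3 libraries. tubb5 and uchl1 are higher and ncam1a is lower in every pair, vip is higher in pairs 2 and 3 and nearly level in pair 1, and the lines of phox2a, ret, elavl3 and nos1 run one way in pair 1 and the other way in pairs 2 and 3.

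Genes of the axon and its cytoskeleton held the neuron genes that were higher in every transected library. tubb5, a beta-tubulin gene, had 11.7, 10.1 and 7.41 CPM in transected guts against 6.79, 4.0 and 4.89 CPM in controls. The lowest transected library stood just above the highest control. The means were 9.73 ± 2.17 and 5.23 ± 1.43 CPM, with a log2 fold change of 0.89 (SE 0.26) and an edgeR adjusted p of 0.473. The ratio was 1.72, 2.52 and 1.52 in pairs 1, 2 and 3. DESeq2 without the libraries numbered 1 called it (log2 fold change 0.96, adjusted p = 0.0437, over a range of 0.0437 to 0.997). Tubulin genes are alike in sequence and dividing cells also make them, and reads shared with other copies were not examined.

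uchl1, the ubiquitin hydrolase known as the pan-neuronal marker PGP9.5, had 110, 80 and 80 counts in transected guts against 59, 56 and 48 in controls, or 4.23, 3.61 and 3.45 CPM against 2.39, 2.6 and 2.17 CPM. The groups were tight and did not overlap, at 3.76 ± 0.411 and 2.39 ± 0.215 CPM. Its log2 fold change of 0.66 (SE 0.20) had an unadjusted p of 0.0135 and an edgeR adjusted p of 0.489, and 0 of 16 alternatives called it. For both tubb5 and uchl1 the two-sided p of the exact permutation test was 0.1, the least that is possible.

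gap43, a growth cone protein of extending and regrowing axons, had 8.53, 10.5 and 7.84 CPM in transected guts against 4.37, 9.44 and 8.19 CPM in controls. The groups overlapped, and control replicate 1 was the lowest library. The log2 fold change over all libraries was 0.29 (SE 0.30, edgeR adjusted p = 0.883). The stathmin genes stmn2a and stmn2b, regulators of microtubules in growing axons, followed the pair pattern, with ratios of 2.0 and 2.81 in pair 1, 0.940 and 0.638 in pair 2, and 0.688 and 0.877 in pair 3. dpysl3, a collapsin response mediator, did so too (1.64, 0.846 and 0.792). prph, the intermediate filament peripherin, had 8.37, 7.08 and 5.26 CPM in transected guts against 5.05, 5.16 and 7.24 CPM in controls. map1b, a microtubule-associated protein of axons, had 8 to 19 counts per library.

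Adhesion genes held the 1 member that was lower in every transected library than in any control. ncam1a, a neural cell adhesion molecule, had 57, 47 and 30 counts in transected guts against 131, 61 and 72 in controls, or 2.19, 2.12 and 1.29 CPM against 5.30, 2.84 and 3.26 CPM. Control replicate 1 stood far above the rest, and the other 2 controls lay closer to the transected libraries. The log2 fold change was -1.02 (SE 0.34, unadjusted p = 0.0212, edgeR adjusted p = 0.534), and the ratio was 0.413, 0.747 and 0.397 in pairs 1, 2 and 3. Its duplicate ncam1b was level, at 2.77, 2.66 and 2.07 CPM in transected guts against 2.71, 2.28 and 2.85 CPM in controls. nrxn1a, a presynaptic adhesion protein, had 5.38, 4.29 and 2.93 CPM in transected guts against 5.22, 5.63 and 4.57 CPM in controls.

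The vesicle release genes, which encode the machinery of transmitter release, shared the pair pattern. All 7 were higher in the transected library in pair 1, 6 were lower in pair 2 and 7 in pair 3. syt1a, the calcium sensor synaptotagmin, had 33, 38.5 and 27.5 CPM in transected guts against 25.8, 47.2 and 39.1 CPM in controls. snap25a, a SNARE protein, ranged only from 6.35 to 9.26 CPM, while sncb, a synuclein, had 97, 59 and 27 counts in transected guts against 29, 77 and 46 in controls. The log2 fold changes of the 7 lay between -0.18 for syt1a and 0.15 for sncb, and their edgeR adjusted p-values between 0.919 and 0.998. Several genes of this kind are also known from enteroendocrine cells, the hormone cells of the gut epithelium. The median level of 26 enteroendocrine markers was -0.28, 0.09 and -0.03 in transected libraries 1, 2 and 3, against -0.31, 0.39 and 0.08 in the controls. These markers took the pair directions of the neuron genes, higher in pair 1 by a small difference and lower in pairs 2 and 3. Control replicate 1 was low in both lists, but transected replicate 1, where the neuron level was high, was also low in enteroendocrine markers. The part of these cells in the neuron result was not tested.

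A scaling chosen after the values were seen set each gene against the other neuron rows of its own library. Per 100 counts of the other 33 neuron rows, ret had 9.04, 10.0 and 11 counts in transected guts against 11.7, 14 and 13.8 in controls, lower in every transected library. ncam1a was also lower in every transected library. uchl1 was higher, at 1.27, 1.09 and 1.33 in transected guts against 1.03, 0.704 and 0.665 in controls. gap43 was higher by a hair, with transected replicate 1 and control replicate 2 both at 2.6 after rounding. So 2 of 32 neuron genes lay wholly above and 2 wholly below, where on this scale 2.2% and 2.62% of all genes tested did. The divisor is the neuron set itself, whose sum differed between libraries, so these shares are not a like background for neuron genes. In CPM the shares were 7.48% and 6.38%. Any gene whose groups lie wholly apart has an exact two-sided permutation p of 0.1, the least that is possible, and ret and uchl1 had it. vip per 100 counts was 4.45, 10.6 and 9.57 in transected guts against 6.28, 4.31 and 4.35 in controls, with overlapping groups. tubb5, which was above every control in CPM, overlapped on this scale, at 3.61, 3.09 and 2.91 in transected guts against 2.98, 1.09 and 1.51 in controls (exact two-sided permutation p = 0.2).

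Counted gene by gene, the glia genes did not show the neuron pattern, and the direction of the set depended on the measure. Their median pair difference, the measure given for neuron genes, was -0.10, -0.19 and 0.07 in log2 CPM in pairs 1, 2 and 3. The summed CPM given above was lower in the transected library in pairs 1 and 2 and higher in pair 3. Only their median level took the pair directions of the neuron genes. That level, over the 7 tested genes, was 0.59, -0.46 and -0.25 in transected libraries 1, 2 and 3, against 0.10, -0.37 and -0.23 in the controls. It was nearly level in pair 3. In pairs 1, 2 and 3, 2, 1 and 4 of 7 were higher in the transected library, where 49.8%, 52.6% and 52.1% of all genes were, and the others were lower (50.2% of all genes in pair 1). sox10, the transcription factor of neural crest and glia, had 107, 41 and 52 counts in transected libraries 1, 2 and 3, against 158, 28 and 56 in the controls, or 4.11, 1.85 and 2.24 CPM against 6.39, 1.3 and 2.54 CPM. Both libraries numbered 1 lay above the other 4, and the groups overlapped (log2 fold change -0.32, SE 0.61, edgeR adjusted p = 0.953). fabp7a, the brain-type fatty acid binding protein of glia and their precursors, had 35, 14 and 13 counts in transected guts against 42, 14 and 17 in controls (log2 fold change -0.30, SE 0.53, edgeR adjusted p = 0.945). plp1b, a proteolipid protein gene, had 68, 25 and 35 counts in transected guts against 80, 28 and 41 in controls. For these 3 of the 7 tested glia genes, both libraries numbered 1 were the highest, as they were for 19.1% of all genes tested. s100b, a calcium-binding protein of glia, was the extreme, with 37, 4 and 2 counts in transected guts against 55, 6 and 1 in controls. It was below the filter, and its exact two-sided permutation p was 0.7.

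In the remaining glia genes the libraries numbered 1 were not both the highest. plp1a, the other proteolipid copy and the steadiest glia gene, had 48, 41 and 47 counts in transected guts against 49, 50 and 36 in controls (log2 fold change -0.05, SE 0.23, edgeR adjusted p = 0.979). foxd3, a factor of the early neural crest, had 61, 21 and 46 counts in transected guts against 32, 21 and 22 in controls. Transected replicates 1 and 3 lay above all the controls and transected replicate 2 was level with control replicates 2 and 3. The log2 fold change of 0.69 (SE 0.39) had an edgeR adjusted p of 0.750. gfap, the glial filament protein, had 38, 8 and 10 counts in transected guts against 16, 15 and 9 in controls, so that its log2 fold change of 0.37 (SE 0.61, edgeR adjusted p = 0.937) rested on transected replicate 1. Without that library it was -0.56. ednrba, an endothelin receptor gene that zebrafish pigment cells also use, had 17, 19 and 16 counts in transected guts against 17, 23 and 8 in controls.

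**Figure D4:**
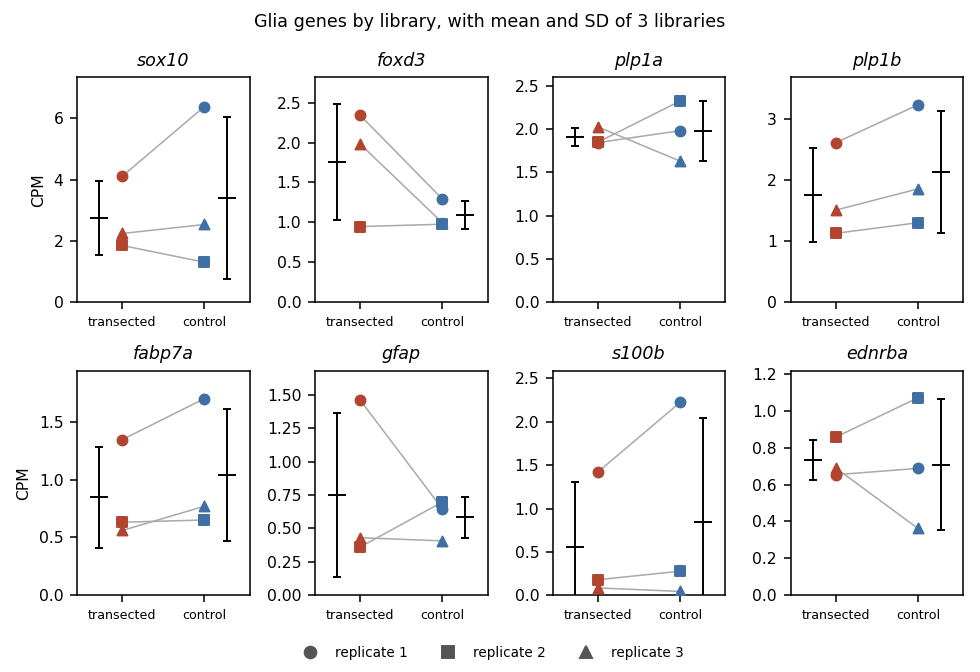
CPM of the 8 glia genes, with transected libraries in red on the left and controls in blue on the right of each panel. Symbols mark the replicate number, grey lines join the libraries of a pair, and the black bars give the mean and SD of 3 libraries (the bars of s100b run below 0 and are clipped there). For sox10, plp1b, fabp7a and s100b the circles, which are the libraries numbered 1, are the highest in both groups.

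Some genes of the glia set are also known from other tissues. Marker lists of several tissues, not all of them known to make glia genes, varied between the libraries. Skeletal muscle markers summed to 7716, 3374 and 6169 CPM in transected libraries 1, 2 and 3, against 11227, 1009 and 4475 CPM in the controls. Of the 44 central nervous system markers with a row, 11 passed the filter, and 5 were at 0 in all libraries (neurog1, slc17a7a, slc6a5, olig1 and mnx1). The median level of the 11 was 0.55, -0.62 and 0.12 in transected guts against 0.65, -0.20 and 0.01 in controls. Their summed level over all 44 was 129, 84.9 and 98.1 CPM in transected guts against 255, 81.5 and 115 CPM in controls, most of the difference being pvalb7, a parvalbumin gene. Without it the sums ran from 70.1 to 80.6 CPM over the 6 libraries. sox3, a factor of neural progenitors, had 3.96, 0.992 and 2.28 CPM in transected guts against 10.4, 0.604 and 2.22 CPM in controls. sox19a of the same list was instead highest in transected replicate 1, at 17.6, 3.97 and 2.11 CPM in transected guts against 9.75, 5.35 and 6.97 CPM in controls. Both genes were picked here after their values were seen. The markers of that list with an unadjusted p under 0.05 were neurod1 and slc17a6b, lower in transected guts (edgeR adjusted p = 0.604 and 0.627). Of all genes tested 3.55% were lower at that level. Both are neuronal genes, and neurod1 is also made by enteroendocrine cells. None of the 27 pigment cell markers in the table was at 0 throughout, and they summed to 304, 335 and 335 CPM in transected guts against 408, 309 and 251 CPM in controls. By sign, 50.5% of all genes tested were higher in transected guts and 49.5% lower. Of the 15 tested pigment markers 11 were higher in transected guts by sign, at a median log2 fold change of 0.36. Epidermal markers were positive in 20 of 24, with a median of 0.40, and had a level of 0.72, 0.02 and 0.21 in transected guts against 0.25, -0.50 and -0.43 in controls. At an unadjusted p under 0.05, 5 of the 24 were higher, where 4.32% of all genes were. DESeq2 called 3 of them, where it called 0.846% of all genes higher. These 3 were zgc:111983, krt17 and krtt1c19e (DESeq2 adjusted p = 0.00113, 0.00757 and 0.0469), of which the last 2 are keratin genes. Of 25 enterocyte markers 18 were negative, and DESeq2 called 3 lower, where it called 0.584% of all genes lower. These 3 were lgmn, ctsl.1 and dab2 (DESeq2 adjusted p = 0.00918, 0.0018 and 0.0132), genes of lysosomal protein uptake and breakdown. edgeR called 0 of either list. The tested members highest in control replicate 1 were sox10, plp1b, fabp7a, ncam1a and rbfox1, where that library was highest for 25% of all genes. The part of these tissues in the values of any member was not tested.

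**Figure D5:**
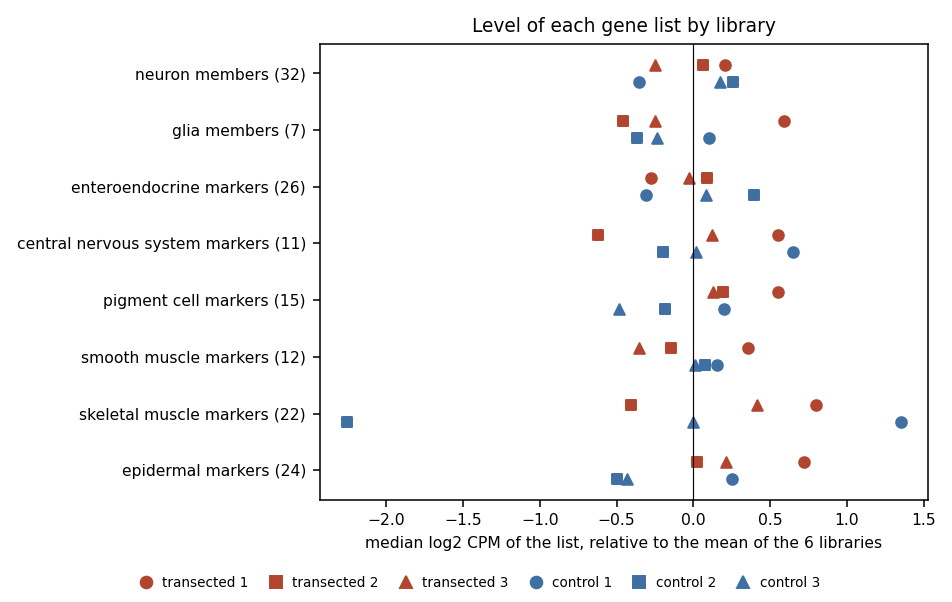
Median log2 CPM of each gene list after subtracting the mean over all 6, with the number of tested genes in brackets. Transected libraries are red and drawn above the controls in blue, and symbols mark the replicate number. The neuron level is lowest in control replicate 1 (-0.35). Glia, central nervous system, pigment cell, smooth muscle, skeletal muscle and epidermal markers are highest in the libraries numbered 1, for pigment cell and epidermal markers narrowly. Enteroendocrine markers are lowest in those libraries.

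Further genes of the enteric nervous system were tested in 3 lists. Of 20 other signalling genes and transcription factors tested, 9 were positive and 11 negative, with a median log2 fold change of -0.05. Of 20 other transmitter and receptor genes 8 were positive, with a median of -0.11, and of 30 other cytoskeleton and synapse genes 19 were positive, with a median of 0.09. In edgeR 0 of these 70 genes passed over all genes tested. At an unadjusted p under 0.05, 1 gene of each list was higher and none was lower, which is close to the share of all genes (4.32% higher). These were meis3, a homeobox gene (10.2, 10.2 and 9.53 CPM in transected guts against 5.58, 8.09 and 6.56 CPM in controls), grp, the gastrin-releasing peptide gene (1.61, 0.902 and 1.64 against 0.849, 0.511 and 0.724 CPM), and tubb2b, a beta-tubulin gene (284, 241 and 255 against 223, 157 and 185 CPM). For each, the lowest transected library lay above the highest control, as for 7.48% of all genes. By median level, all 3 lists were higher in the transected library in pair 1 and lower in pairs 2 and 3, as the neuron genes were. For the signalling genes and transcription factors, pair 2 was nearly level. In summed CPM the cytoskeleton and synapse genes were instead higher in every pair (1245, 1126 and 1180 CPM in transected guts against 998, 970 and 962 CPM in controls). The rank of control replicate 1 differed between the lists. The other signalling genes and transcription factors had a level of 0.23, -0.05 and -0.10 in transected guts against 0.13, -0.05 and -0.03 in controls, so that control replicate 1 was the highest control. The cytoskeleton and synapse genes were at 0.23, 0.12 and -0.09 against -0.22, 0.19 and 0.01, with control replicate 1 lowest. The transmitter and receptor genes were also lowest there, with a level of -0.15, 0.15 and 0.01 in transected guts against -0.62, 0.31 and 0.34 in controls.

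Of 22 other glia and Schwann cell genes tested, 13 were positive (median log2 fold change 0.14), and 0 passed in edgeR. Their median level was 0.32, -0.03 and -0.02 in transected libraries 1, 2 and 3, against 0.33, -0.19 and -0.14 in the controls. It was nearly level in pair 1 and higher in the transected library in pairs 2 and 3, unlike the neuron genes. glula, a glutamine synthetase gene that many cell types besides glia express, was lower in every transected library, at 32.4, 28.5 and 31.1 CPM against 55.8, 88.1 and 81.2 CPM in controls (log2 fold change -1.29, SE 0.18, edgeR adjusted p = 0.149). DESeq2 called it (adjusted p = 1.78e-06, over a range of 3.58e-23 to 0.824 across the alternatives). col28a2a, a collagen gene of peripheral glia, was at 8.95, 2.93 and 5.30 CPM in transected guts against 2.87, 0.790 and 1.63 CPM in controls (log2 fold change 1.69, SE 0.57, edgeR adjusted p = 0.544). The lowest transected library lay just above the highest control, and 7.48% of all genes tested lay wholly above. DESeq2 on all 6 libraries did not call it (adjusted p = 0.132, over a range of 6.07e-05 to 0.994 across the alternatives). Markers of the interstitial cells of Cajal, the pacemaker cells of the gut, had 2 of 5 tested genes positive and a median of -0.0018.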

How the data were processed

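Gene counts came from 6 bulk RNA libraries of dissected guts. Per the labels' protocols, stranded mRNA libraries were read as 100 bp paired-end reads, checked with FastQC 0.11.8 and aligned to danRer11. Not given in the sources used here are the aligner, the counting tool and its strand setting, and the annotation, so reads shared between duplicated genes (the a and b copies, the tubulins) may be split in ways unknown here. The deposited values are raw counts per gene symbol, with no normalization by the authors. Transcript lengths were not used here, so levels of different genes are not ranked.

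The members and all gene lists were chosen with earlier results of these data known. After a filter on low counts (filterByExpr, at least 10 counts and a total of 15), libraries were scaled with TMM (factors 0.935 to 1.05) and all 11466 genes were tested two-sided by quasi-likelihood (edgeR 4.0.16, R 4.3.3), with Benjamini-Hochberg adjustment and a threshold of 0.05. The SE is the log2 fold change divided by the root of F. Log2 CPM used a prior count of 2. Ranges of adjusted p leave out values that DESeq2 gave as missing.

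Replicate numbers are shared by both groups. The sample titles hold a further number, which also matches within pairs 2 and 3. In pair 1 only the control title has such a number, so the titles give less ground for that pair. Deviations from the group mean correlated at 0.450, 0.512 and 0.177 between libraries with the same number over 11466 genes (which are not independent), each the highest for its libraries, so the numbers were taken as pairs. Libraries of a group differed by 26.4 to 243 times counting error (chi-square over its degrees of freedom), so none is a copy of another. The labels do not name separate crosses or days, so p-values measure the spread between these pools.

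Full values were given by rule to members whose groups did not overlap, that had an unadjusted p under 0.05 or a call in an alternative with all 6 libraries, or that define the cell types. Other members were added by role, and some are not reported here singly, though they stay in the counts and medians of the neuron set. Those added were chosen after their values were seen. On simulated counts for this comparison over 11466 genes, edgeR recovered 40% of genes changed 2-fold and 93% of those changed 4-fold, with 9 false calls, and DESeq2 61% and 97%, with 48. The changed genes were drawn from those with a mean above 1 CPM, and no effect shared by the libraries of a pair was simulated. The rates therefore do not cover members at lower levels. Alternatives were DESeq2 1.42.0, limma-voom (limma 3.58.1), other scalings and filters, the replicate block and left-out libraries. DESeq2 without both libraries numbered 1, and the scaling to neuron rows, were added after the data were seen.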

Additional observations from a re-analysis of the deposited data

How the results depend on the processing

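The lack of calls among the members held in most settings. 0 neuron and 0 glia members passed with other scalings, other filters, DESeq2, limma-voom, edgeR or DESeq2 with the replicate block, each library left out in turn, and edgeR without both libraries numbered 1. DESeq2 without those libraries called 2 neuron members higher and 1 lower. Over all genes, edgeR called 2 higher and 0 lower, against 97 and 67 in DESeq2 and 0 higher in limma-voom. With the replicate block, edgeR called 3 higher and 1 lower and DESeq2 164 and 124. Leaving out single libraries gave 0 to 4 higher and 0 to 1 lower. Without both libraries numbered 1, edgeR called 99 and 172 and DESeq2 277 and 414. The cause of these differences was not tested.

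The neuron median log2 fold change ranged from -0.15 to 0.17 with single libraries left out and was -0.29 (edgeR) and -0.30 (DESeq2) without both libraries numbered 1. The glia median ranged from -0.56 (without transected replicate 1) to 0.26. Signs turned for several members. Without both libraries numbered 1, edgeR and DESeq2 gave -0.22 and -0.22 for nos1, -0.29 and -0.29 for chata, and 0.082 and 0.079 for sox10. With single libraries left out, nos1 ran from -0.32 to 0.44, chata from -0.32 to 0.25, sox10 from -0.75 to 0.51, gfap from -0.56 to 0.70, plp1a from -0.17 to 0.078 and fabp7a from -0.81 to 0.26. vip, tubb5, uchl1, ncam1a, ret, elavl3, elavl4 and foxd3 kept their sign in every alternative run. Of the 24 other tested members, 19 changed sign in at least 1 of 16 alternatives and 0 were called in any. In counts simulated for 3 against 3 libraries, 2-fold changes in genes above 1 CPM were often missed. Members with few counts (gfra1b, slc18a2, map1b and most glia genes) carry more counting error, and genes under 1 CPM were not among those changed in the simulation.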
